A study of Mus musculus with 4 samples.

Results

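The genes described here encode the subunits of the RNA polymerases and the factors that start and lengthen proteins on the ribosome, and were chosen as the genes whose names begin with Polr, Eif or Eef. Of 15256 gene names in the authors' deposited table of reproducible binding regions, 58 met this rule once pseudogenes were left out. These 58 genes were listed with 109 of its 12925 regions, at any distance from a gene. RefSeq holds 101 protein-coding mouse genes with such names, of which 58 were in the table by that name, 4 under an older name and 39 not at all.

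The data are chromatin immunoprecipitation and sequencing (ChIP-seq) of STAT3 phosphorylated on tyrosine (pSTAT3) in oligodendrocyte progenitor cells, the dividing cells from which myelinating oligodendrocytes form. The progenitors were cultured from the cortex of C57BL/6 mice with bFGF at 20 ng/ml and PDGF-AA at 10 ng/ml, and exposed to the cytokine CNTF at 100 ng/ml for 15 min. This cytokine signals through gp130 and JAK kinases, which phosphorylate STAT3, and the phosphorylated factor enters the nucleus and binds DNA. The results rest on 2 pSTAT3 ChIP libraries, here replicates 1 and 2, with 42131 and 26537 peaks on chromosomes 1 to 19, X and Y, and on the regions the authors kept from both. All these cells received CNTF and the growth factors, and the 2 input libraries were not analysed here, so a dependence of binding on CNTF cannot be told from these values. The sources used here give no read numbers, and the lowest background of the peak caller, 4.72 fragments in replicate 1 and 2.91 in replicate 2, is the measure of depth the lists give. Lysates were pooled and no label names separate cultures, so the spread between replicates may be technical. Binding does not show which cell type was sampled, so the labelled cell type was not checked against marker genes.

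RNA polymerase I (Pol I) transcribes the large ribosomal RNA precursor, Pol II messenger RNAs, and Pol III transfer RNAs and the small ribosomal RNA, with some subunits shared between them. Translation begins when eIF2 brings the initiator transfer RNA to the small ribosomal subunit, eIF3 and eIF4 factors recruit the messenger RNA, and eIF5 and eIF5B let the large subunit join. The eEF1 factors then deliver each charged transfer RNA and eEF2 moves the ribosome along. Dividing cells such as progenitors need these machines to grow.

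The sequences below are the RefSeq promoter windows (build GRCm38.p6, 250 bases before to 50 after the start, read 5′ to 3′ on the gene's strand) of the 5 genes of the set with the strongest regions among those whose window holds the STAT pattern TTCNNNGAA and is overlapped by the region, and show where the pattern lies against the measured summits. Capitals mark the pattern, which reads the same on both strands. They come from chr7:120843350-120843649 (plus strand) for Eef2k, chr7:126566317-126566616 (minus strand) for Eif3c, chr15:79141075-79141374 (plus strand) for Polr2f, chr13:38658979-38659278 (minus strand) for Eef1e1 and chr2:129100746-129101045 (plus strand) for Polr1b.
Eef2k: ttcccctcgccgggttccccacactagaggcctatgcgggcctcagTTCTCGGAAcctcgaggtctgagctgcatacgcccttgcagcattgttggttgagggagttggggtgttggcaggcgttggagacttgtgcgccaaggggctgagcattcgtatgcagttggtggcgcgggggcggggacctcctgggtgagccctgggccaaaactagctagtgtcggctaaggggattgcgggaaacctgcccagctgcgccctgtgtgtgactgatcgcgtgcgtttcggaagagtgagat
Eif3c: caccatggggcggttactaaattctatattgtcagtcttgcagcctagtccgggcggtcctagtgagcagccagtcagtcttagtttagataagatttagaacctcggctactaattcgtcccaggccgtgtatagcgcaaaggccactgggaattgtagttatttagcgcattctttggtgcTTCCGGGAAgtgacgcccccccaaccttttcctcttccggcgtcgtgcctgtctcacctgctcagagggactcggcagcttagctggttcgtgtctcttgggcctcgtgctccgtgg
Polr2f: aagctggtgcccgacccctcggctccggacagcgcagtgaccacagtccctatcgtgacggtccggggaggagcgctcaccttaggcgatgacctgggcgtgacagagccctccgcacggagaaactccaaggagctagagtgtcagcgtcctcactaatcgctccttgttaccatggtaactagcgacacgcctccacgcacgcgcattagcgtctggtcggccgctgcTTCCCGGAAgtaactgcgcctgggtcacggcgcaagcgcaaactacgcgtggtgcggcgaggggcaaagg
Eef1e1: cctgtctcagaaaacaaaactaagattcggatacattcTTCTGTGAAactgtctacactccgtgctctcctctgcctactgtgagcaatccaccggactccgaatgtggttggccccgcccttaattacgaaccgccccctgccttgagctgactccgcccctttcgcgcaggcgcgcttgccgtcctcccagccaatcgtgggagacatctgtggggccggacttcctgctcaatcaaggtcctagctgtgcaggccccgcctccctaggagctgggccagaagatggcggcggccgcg
Polr1b: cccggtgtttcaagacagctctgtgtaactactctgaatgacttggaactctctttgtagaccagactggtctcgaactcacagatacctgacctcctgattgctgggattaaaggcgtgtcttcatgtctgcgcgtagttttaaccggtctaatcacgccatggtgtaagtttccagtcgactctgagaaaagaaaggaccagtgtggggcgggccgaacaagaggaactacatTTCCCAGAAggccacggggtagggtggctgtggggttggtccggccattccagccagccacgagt

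In Polr2f, which encodes a subunit common to Pol I, Pol II and Pol III, the centre of TTCCCGGAA lay 16 bp before the RefSeq start, 10 bp from the summit of replicate 1 and 5 bp from that of replicate 2. In Eif3c, a core subunit of eIF3, TTCCGGGAA lay 63 bp before the start, 14 and 13 bp from the summits of replicates 1 and 2. In Polr1b, the second largest subunit of Pol I, TTCCCAGAA lay 11 bp before the start, 46 and 81 bp from the summits. In Eef2k, the kinase that phosphorylates eEF2 and slows elongation, TTCTCGGAA lay 200 bp before the start, 9 bp from the replicate 2 summit but 185 bp from that of replicate 1. In Eef1e1, a component of the multi-aminoacyl-tRNA synthetase complex, TTCTGTGAA lay 208 bp before the start and 599 and 595 bp from the summits, away from the centre of binding. The pattern was thus within 20 bp of both summits in Polr2f and Eif3c alone among these 5 genes.

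Over all windows of the set, 11 of 96 held TTCNNNGAA (11.5%), beside 1636 of 21262 windows (7.69%) of all protein-coding genes. Among windows of genes with a reproducible region within 1 kb of a RefSeq start, 7 of 38 held it (18.4%) in the set and 348 of 2886 (12.1%) over all genes. Of the set's windows without such a region, 4 of 58 held it (6.90%): those of Eif2ak3, Eif3g, Eif4e and Polr3c. Most windows of the set with a region thus had no match, which says only that these letters are not in the 300 bases.

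Reproducible pSTAT3 regions lay close to the starts of many of these genes. A region is an interval of the authors' table that passed an irreproducible discovery rate (IDR) of 0.05 between the replicates, its position is its midpoint, and its distance is to the nearest annotated transcript start of the same gene. Of the 58 genes in the table, 35 had a region within 5 kb of a start and 31 within 1 kb. Of all 101 genes of the set in RefSeq, older names included, 37 had a region within 5 kb, which is 36.6% (95% Wilson interval 27.9 to 46.4%), beside 18.1% of 21883 protein-coding genes. Within 1 kb the share was 32.7% of the set (33 genes, interval 24.3 to 42.3%) and 12.8% of all protein-coding genes. By the prefix of the name, 13 of 29 Polr genes, 16 of 56 Eif genes and 6 of 16 Eef genes had a region within 5 kb under that name. Counts for smaller groups, given below, are to be read beside the same 18.1% of all protein-coding genes. The ribosome's own genes were close to the set: 31 of 89 cytosolic ribosomal protein genes (34.8%) and 25 of 78 mitochondrial ribosome genes (32.1%) had a region within 5 kb.

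**Figure D1:**
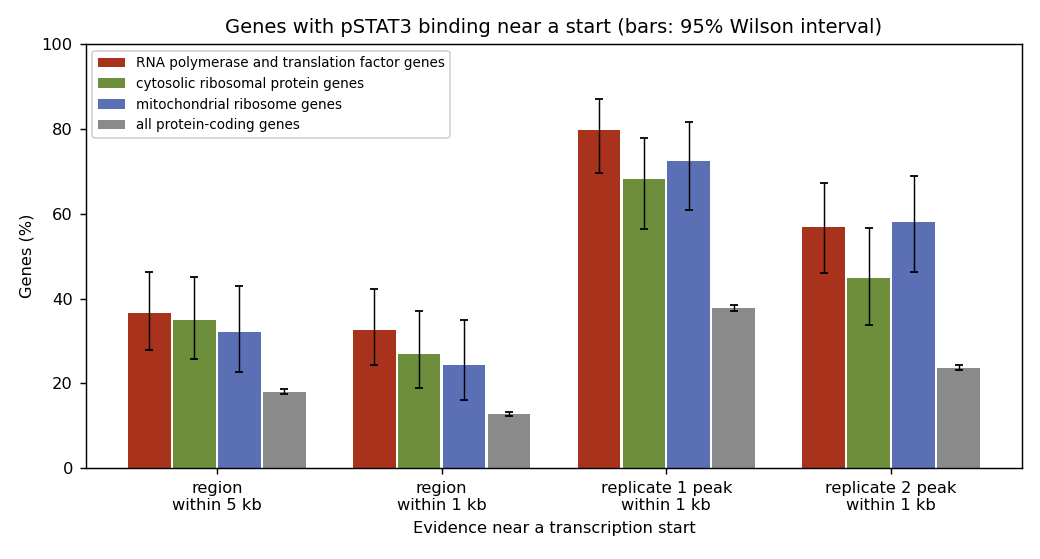
Share of genes (percent, linear axis) with a reproducible region within 5 kb or 1 kb of a start, or with a peak summit of replicate 1 or replicate 2 within 1 kb of a RefSeq start, for the set, cytosolic ribosomal protein genes, mitochondrial ribosome genes and all protein-coding genes; bars are 95% Wilson intervals, which cover counting error over genes only. The set is above all protein-coding genes in each of the 4 measures (36.6% against 18.1% for regions within 5 kb), and its intervals overlap those of both ribosomal groups.

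Nearly all genes of the set have promoters rich in CpG. Of 79 genes of the set with a RefSeq window, 72 (91.1%) had an observed to expected CpG ratio of at least 0.6, beside 50.9% of 17491 protein-coding genes with a window. Within CpG-rich promoters, 26 of the 72 genes of the set (36.1%, interval 26.0 to 47.6%) had a region within 1 kb of the RefSeq start, and 19.0% of all CpG-rich genes did. The same shares were 25.9% for cytosolic ribosomal protein genes and 25.0% for mitochondrial ribosome genes. The comparison within CpG-rich promoters was added after the data were seen, and other properties that promoters of steadily expressed genes share, such as open chromatin, were not tested.

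The regions at these genes were on average somewhat stronger than those of the table as a whole, with a wide spread. Strength is the fold enrichment, over local background, of the strongest peak that overlaps a region, as the authors' peak caller gave it, and the lower of both replicates is used to rank regions. The 39 regions within 5 kb had a median lower fold of 9.17, with a lowest value of 4.61, beside a median of 7.48 over all 12925 regions. Of the 39 regions, 24 (61.5%) were at or above that median and 5 (12.8%) reached 20-fold in both replicates, as did 7.76% of all regions. The 33 regions within 1 kb had a median of 8.12, beside 7.54 over the 3092 regions within 1 kb of any gene's start. The 6 regions between 1 and 5 kb from a start of the set had a median of 16.9 and a lowest value of 9.47. Those of Polr2l and Polr2f among them lay 138 bp from the start of Tspan4 and 469 bp from that of 1700088E04Rik. The median over the 1913 regions whose nearest start of any gene was at 1 to 5 kb was 7.42, a group that leaves out regions so close to another start and so is not like for like. Fold enrichment was higher in replicate 1 in 38 of the 39 regions, with a median ratio of 1.35, and in 95.1% of all regions, with a median ratio of 1.33. The highest lower fold in the table was 57.0.

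**Figure D2:**
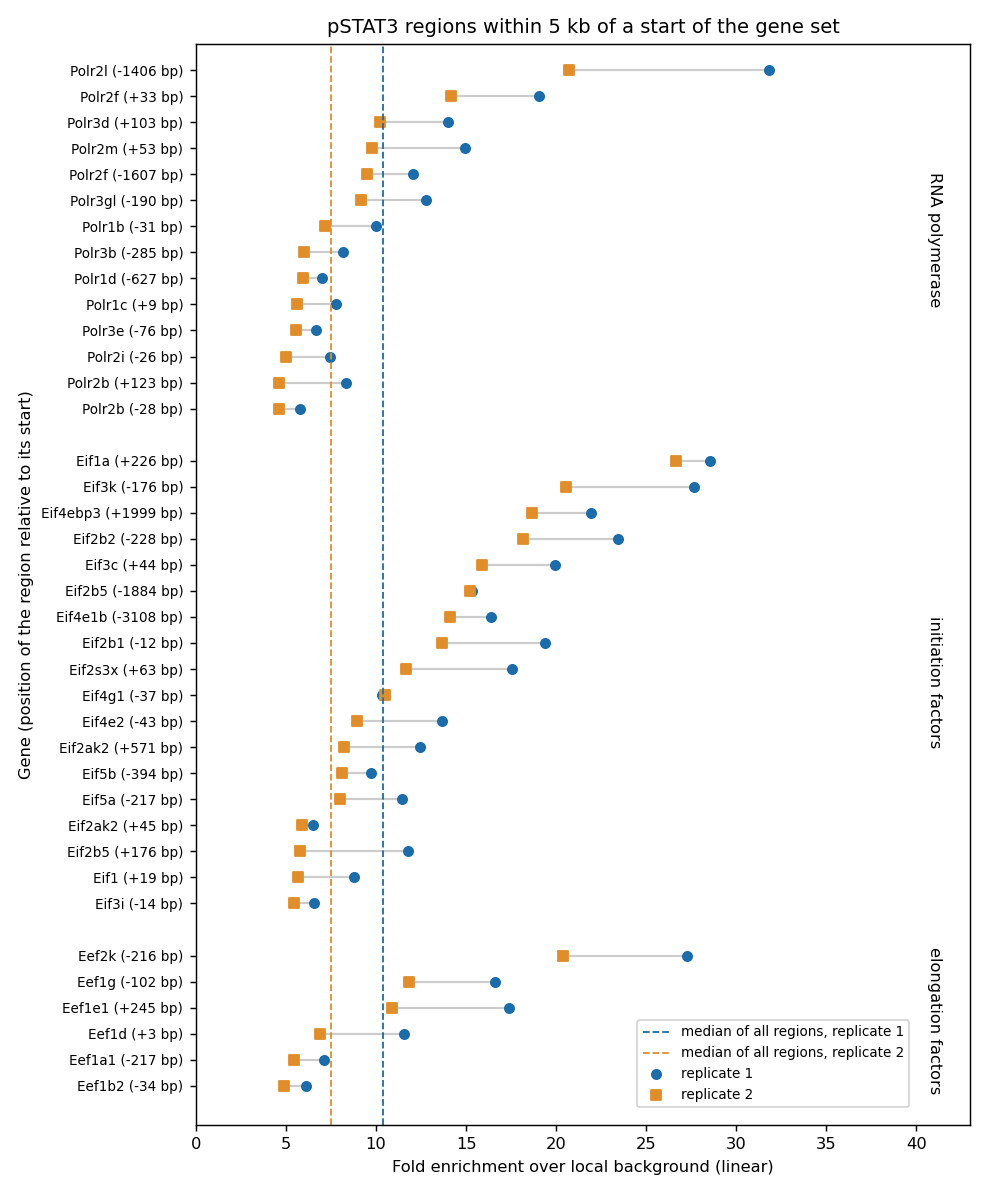
Fold enrichment over local background (linear axis) of 38 regions within 5 kb of a start, by gene and position of the region (bp, negative upstream), with circles for replicate 1, squares for replicate 2 and dashed lines for the medians of all regions (10.4 and 7.51). Among the polymerase genes shown, folds reach 31.8 and 20.7 for Polr2l and go down to 5.78 and 4.61 for the weaker region of Polr2b, and the circle is right of the square for every region but that of Eif4g1.

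Among Pol III genes, 5 of 10 had a region within 5 kb. Polr3d, a Pol III subunit that helps termination and reinitiation, had 14.0-fold and 10.2-fold enrichment in replicates 1 and 2 at a region centred 103 bp downstream of its start, 142 bp from the start of the microRNA gene Mir320. Polr3gl, the more broadly expressed form of a subunit that links Pol III to its initiation factors, had 12.8-fold and 9.17-fold enrichment 190 bp upstream. Polr3b, the second largest and catalytic subunit, had 8.14-fold and 5.97-fold enrichment 285 bp upstream. Polr3e, another subunit found in Pol III alone, had 6.65-fold and 5.57-fold enrichment 76 bp upstream. Polr3d and Polr3gl were thus above the medians of all regions in both replicates (10.4 and 7.51), and Polr3b and Polr3e below them.

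Polr3a, the largest subunit of Pol III, had no region within 5 kb. Its regions lay 13154 bp and 13836 bp upstream, and the farther of these had 28.5-fold and 26.5-fold enrichment (260 and 155 fragments) in replicates 1 and 2, with the start of Rps24 10201 bp away. Polr3f had its nearest region 19850 bp away, at the start of Sec23b.

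Among Pol II genes, 5 of 13 had a region within 5 kb. Polr2l, a small subunit shared by Pol I, Pol II and Pol III, had 31.8-fold enrichment (181 fragments) in replicate 1 and 20.7-fold (80 fragments) in replicate 2 at chr7:141475965-141477111. That region was centred 1406 bp upstream of Polr2l and 138 bp from the start of Tspan4, a tetraspanin gene, so it lies at another gene's promoter. At its own start Polr2l had a peak of 4.90-fold in replicate 1 and none in replicate 2. Polr2f had 19.0-fold (127 fragments) and 14.1-fold (63 fragments) enrichment in replicates 1 and 2 at its start, where the pattern printed above lies. This region also lay 131 bp from the start of 1700088E04Rik. A second region of Polr2f 1607 bp upstream had 12.1-fold and 9.47-fold. Polr2m, which encodes Gdown1, a Pol II-associated protein that restrains transcription, had 14.9-fold and 9.79-fold enrichment centred 53 bp past its start.

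Polr2b, the second largest subunit of Pol II and part of its active site, had a pair of weak regions, each placed against a different annotated start. The first was 123 bp downstream of a start 7 bp from the RefSeq start, with 8.32-fold and 4.62-fold enrichment in replicates 1 and 2. The other was 28 bp upstream of a start 337 bp from the RefSeq start, with 5.78-fold and 4.61-fold. Noa1 has a start 35 bp from the upstream region of Polr2b. Polr2i, a small Pol II subunit involved in start selection and fidelity, had 7.44-fold and 5.00-fold enrichment centred 26 bp before its start. Polr2a, the largest subunit, whose tail coordinates messenger RNA processing, had no reproducible region in the table, but both peak lists hold a peak at its start, with 5.95-fold enrichment 100 bp downstream in replicate 1 and 5.89-fold 124 bp downstream in replicate 2. Polr2c and Polr2h had their nearest regions 13999 bp and 21401 bp away.

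Of 5 Pol I genes, the 3 with a region within 5 kb were Polr1b, Polr1c and Polr1d. Polr1b had 10.0-fold (58 fragments) and 7.17-fold (27 fragments) enrichment in replicates 1 and 2, centred 31 bp upstream of its start. Polr1c, shared by Pol I and Pol III, had 7.80-fold and 5.63-fold enrichment 9 bp downstream, with Yipf3 starting 122 bp from the region. Polr1d, also shared by Pol I and Pol III, had 6.98-fold and 5.96-fold enrichment 627 bp upstream, at a region 163 bp from the start of Lnx2. Polrmt, the mitochondrial RNA polymerase, had its nearest region 20448 bp away, at the start of Rnf126. The Pol I regions were all below the median of all regions in replicate 1 (10.4) and replicate 2 (7.51).

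In start-site selection 2 of 5 genes of the eIF1 family had a region within 5 kb, and in delivery of the initiator transfer RNA 1 of 6 genes of eIF2 and its relatives. Over all protein-coding genes the share was 18.1%. Eif1a, a factor that steadies scanning and start codon choice, had 28.5-fold (162 fragments) and 26.6-fold (103 fragments) enrichment in replicates 1 and 2, with both summits 21 bp downstream of its start, and Tmed7 starts 399 bp from the region's centre. Eif1, its partner in start codon selection, had 8.76-fold and 5.66-fold enrichment centred 19 bp past a start that lies 569 bp from its RefSeq start. Eif2s3x, the X-linked gene of the eIF2 gamma subunit that binds GTP and the initiator transfer RNA, had 17.6-fold and 11.7-fold enrichment 63 bp downstream. Eif1b and Eif2s2, the eIF2 beta subunit, had their nearest regions 14078 bp and 15530 bp away.

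The exchange factor eIF2B, which recharges eIF2 with GTP and is the point at which stress lowers translation, was bound near 3 of its 5 genes. Eif2b2 (beta subunit) had 23.4-fold (133 fragments) and 18.2-fold (70 fragments) enrichment in replicates 1 and 2 at chr12:85218908-85219598, 228 bp upstream of its start. Among genes in the authors' table, no other start was nearer than 41957 bp, and genes absent from it were not searched. Eif2b1 (alpha subunit) had 19.4-fold and 13.7-fold enrichment centred 12 bp before its start, at a region that also lies 96 bp from the divergent start of Gtf2h3, a TFIIH subunit. Eif2b5 (the catalytic epsilon subunit) had 15.3-fold and 15.2-fold enrichment 1884 bp upstream and a second region 176 bp downstream with 11.8-fold and 5.78-fold. The replicates were thus close at the upstream region of Eif2b5 and apart at its start. Eif2b3 and Eif2b4 had their nearest regions 12334 bp and 10862 bp away.

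Of the 4 kinases that phosphorylate eIF2 alpha and so inhibit eIF2B, only Eif2ak2 (PKR, activated by double-stranded RNA and induced by interferon) had a region within 5 kb. Eif2ak2 had 12.4-fold and 8.19-fold enrichment centred 571 bp past its start and a second region 45 bp downstream with 6.47-fold and 5.89-fold. The stronger region lay 65 bp from the start of Gm26637, nearer than that of Eif2ak2, and the second region 461 bp from it. The lists of both replicates hold peaks within 1 kb of the RefSeq starts of all 4 kinases, with weaker values for the others. By the same measure, 57.0% of the set and 22.6% of all protein-coding genes had peaks of both replicates. Eif2ak3 (PERK, the kinase of endoplasmic reticulum stress) had 4.91-fold and 3.27-fold, Eif2ak1 (the heme-regulated kinase) 3.50-fold and 3.29-fold, and Eif2ak4 (GCN2, the kinase of amino acid shortage) 3.19-fold and 2.92-fold enrichment in replicates 1 and 2. The Eif2ak1 peaks lay at 218 bp in replicate 1 and −55 bp in replicate 2 from its start, so they need not mark 1 site. In replicate 2 the peaks rested on few fragments, 13 each for Eif2ak1 and Eif2ak4 and 20 for Eif2ak3.

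The eIF3 complex, which holds the small ribosomal subunit and the messenger RNA together, had a region within 5 kb at 3 of 14 genes. This is to be set beside 18.1% of all protein-coding genes. Eif3k, a peripheral subunit, had 27.7-fold (174 fragments) and 20.6-fold (87 fragments) enrichment in replicates 1 and 2 at chr7:28981632-28982349, 176 bp upstream of its start and 864 bp from that of Map4k1. Eif3c had 19.9-fold (113 fragments) and 15.9-fold (61 fragments) enrichment centred 44 bp past an annotated start, with both summits within 5 bp of that start. The same start lies 45 bp from the RefSeq start against which the pattern was placed above. Eif3i, a subunit of the WD-repeat module, had 6.55-fold and 5.43-fold enrichment 14 bp upstream, with Tmem234 starting 38 bp from the region. Eif3h had its nearest region 11987 bp upstream with 28.9-fold and 18.8-fold enrichment, 10 bp from the start of Utp23.

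The eIF4 factors, which bind the cap of messenger RNA and unwind its leader, had a region within 5 kb at 3 of 13 genes. The same share over all protein-coding genes was 18.1%. Eif4g1, the scaffold that joins the cap-binding protein to the helicase and eIF3, had 10.3-fold (58 fragments) and 10.5-fold (40 fragments) enrichment in replicates 1 and 2, 37 bp upstream of a start that lies 568 bp from its RefSeq start. It is the only region of the 39 in which replicate 2 was the higher. Eif4e2, a cap-binding protein that represses translation, had 13.6-fold and 8.96-fold enrichment 43 bp upstream. Eif4e1b, a cap-binding relative known from oocytes, had 16.4-fold and 14.1-fold enrichment 3108 bp upstream, with the start of Gm16249 nearer at 2201 bp. Eif4ebp3, which binds the cap-binding protein and blocks it, had 21.9-fold (200 fragments) and 18.7-fold (109 fragments) enrichment 1999 bp past its start, outside its transcripts. Eif4e itself, the cap-binding protein, had its nearest region 10368 bp away, and Eif4e3, Eif4h, Eif4b and Eif4enif1 theirs at 11570, 12851, 21936 and 8953 bp.

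Of the 5 genes of eIF5 and eIF6 type, 2 had a region within 5 kb. Eif5a, the hypusine-bearing factor that helps the ribosome through difficult stretches and termination, had 11.4-fold and 7.98-fold enrichment in replicates 1 and 2, 217 bp upstream of its start. Eif5b, the GTPase of subunit joining, had 9.69-fold and 8.12-fold enrichment 394 bp upstream, at a region centred on the start of Txndc9. Eif5, the GTPase-activating factor for eIF2, had its nearest region 23909 bp away.

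Of the 8 elongation factor genes, 5 had a region within 5 kb, and these are the genes of eEF1 and its partners. Eef1g had 16.6-fold (151 fragments) and 11.8-fold (75 fragments) enrichment in replicates 1 and 2, 102 bp upstream of its start, and Eef1d 11.5-fold (65 fragments) and 6.91-fold (26 fragments) at 3 bp downstream. Eef1b2 had 6.12-fold and 4.86-fold enrichment 34 bp upstream. These genes encode the gamma, delta and beta subunits of the complex that reloads eEF1A with GTP. Each of its subunits in the table was thus bound at or near an annotated start. Eef1a1, the main eEF1A outside muscle and neurons, had 7.09-fold and 5.45-fold enrichment 217 bp upstream, while Eef1a2, the form of muscle and neurons, had no region within 25 kb. Eef1e1 had 17.4-fold (102 fragments) and 10.9-fold (43 fragments) enrichment centred 245 bp past its start. Eef2, the translocase, was not in the table, and its start had a peak in replicate 1 alone, of 3.27-fold.

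Eef2k had the strongest region within 5 kb among the Eef genes. Its region at chr7:120842586-120844182, 1597 bp wide, had 27.3-fold enrichment (175 fragments) in replicate 1 and 20.4-fold (88 fragments) in replicate 2 and spanned the start, with the summits at −15 bp and −209 bp from it. A further region inside the gene, 6866 bp downstream of another annotated start of Eef2k, had 18.5-fold and 13.6-fold enrichment. Eef2k and Polr3e are neighbours, and the nearest start of Eef2k lay 25813 bp from the promoter region of Polr3e. Eef2kmt, the methyltransferase of eEF2, stands in the table under the older name Fam86 and had 19.9-fold and 13.8-fold enrichment 193 bp from a start. Eef1aknmt, a methyltransferase of eEF1A listed as Mettl13, had 10.4-fold and 7.62-fold at 141 bp, and the other 2 genes listed under older names, Eef1akmt1 and Eef1akmt3, had no region within 25 kb.

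Compared with all protein-coding genes, regions near the set were concentrated on the start. This trait was shared with mitochondrial ribosome genes and, by the median distance within 1 kb, with cytosolic ribosomal protein genes. Of 83 pairs of a gene of the set and a region within 25 kb, in which Eif4g1 and Polr2h share a region, 33 (39.8%) lay within 1 kb, beside 25.2% of 11964 such pairs over all protein-coding genes. Within 250 bp of the start lay 34.9% of the set's pairs and 16.5% of all, and between 1 and 5 kb 7.23% and 15.5%. Between 10 and 25 kb the shares were close, 43.4% in the set and 44.2% over all. Of the 33 regions within 1 kb, 29 spanned the start, 19 had their centre upstream and 14 downstream, and the median distance was 76 bp, beside 152 bp over all genes. Among mitochondrial ribosome genes 42.2% of 45 pairs lay within 1 kb, at a median distance of 43 bp, and among cytosolic ribosomal protein genes 29.3% of 82 pairs, at a median of 68.5 bp. These distances are to the nearest Ensembl start in the authors' table, which for 28 of the 33 regions could be set against a RefSeq start and lay a median of 30 bp and at most 569 bp from it. The summits lay within 100 bp of the start in 19 of the 33 regions in replicate 1 and 20 in replicate 2. In 18 of the 33 regions the start of another gene in the authors' table was also within 1 kb, and in 3 of them it was the nearer. The target of a region at paired promoters thus cannot be told from position.

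**Figure D3:**
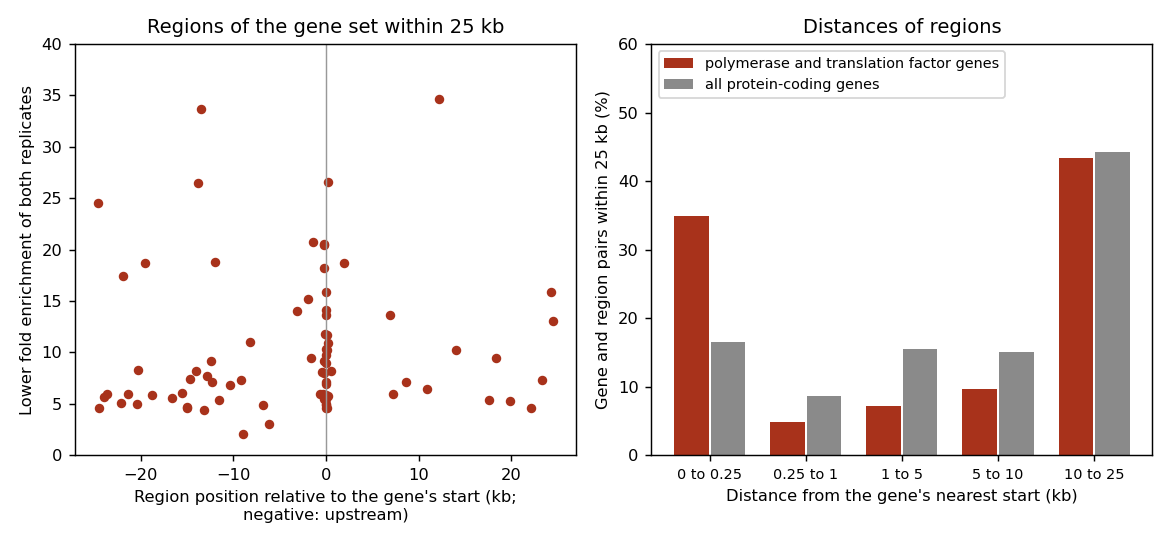
Left, lower fold enrichment of both replicates against the position of regions within 25 kb of a start of the genes described (kb, negative upstream); right, share of gene and region pairs within 25 kb by distance from the start (percent, linear axes) for the set and all protein-coding genes. The set has 34.9% of its pairs within 0.25 kb of the start against 16.5% for all protein-coding genes, and strong regions appear both at the start and beyond 10 kb.

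Just inside the 5 kb limit lay the region of Eif4e1b at 3108 bp, and just outside it a region of Polr1d at 6149 bp with 3.50-fold and 3.07-fold enrichment in replicates 1 and 2, the only region listed with the set whose mean −log10 p was under 10, and a region of Polr3gl at 6764 bp with 6.24-fold and 4.86-fold. For 16 genes the nearest region lay 5 to 25 kb away, and for 7 genes it lay farther: Eef1a2, Eefsec, Eif2a, Eif2ak1, Eif3j2, Eif4g2 and Eif4g3. A pair of regions of Eef1g exceeded every region of the set within 5 kb. Measured from different annotated starts of Eef1g, they lay 12182 bp downstream and 13452 bp upstream. The downstream region had 34.7-fold and 35.0-fold enrichment in replicates 1 and 2, 4698 bp from a start of Ahnak. The upstream region had 35.2-fold and 33.6-fold, 261 bp from the start of Tut1. Eif2b2 had a region 24618 bp upstream with 27.0-fold and 24.5-fold enrichment. Eif2b1 had a region 19481 bp upstream with 27.2-fold and 18.7-fold enrichment, 137 bp from the start of Tctn2. The region of Eif4enif1 at 8953 bp, at the start of Sfi1, had 2.26-fold and 2.07-fold enrichment although 219 and 128 fragments were stacked there.

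The separate peak lists show weaker binding at many promoters that have no reproducible region. Of the 79 genes of the set with a RefSeq window, 63 (79.7%) had a replicate 1 peak within 1 kb of a RefSeq start, beside 37.8% of all protein-coding genes. In replicate 2 it was 45 genes (57.0%), beside 23.7%. Peaks of both replicates were found at the same 45 genes, beside 22.6% of all protein-coding genes, so no gene of the set had a peak in replicate 2 alone. Within CpG-rich promoters the shares were 81.9% of the set beside 60.4% of all in replicate 1, and 59.7% beside 37.7% in replicate 2. For cytosolic ribosomal protein genes the shares over all windows were 68.1% in replicate 1 and 44.9% in replicate 2, and of 69 mitochondrial ribosome genes 50 had a peak in replicate 1 and 40 in replicate 2. Eef1akmt4 and Eef1akmt4-ece2, a readthrough gene, share a start and hence their peaks.

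At the 28 genes with a reproducible region within 1 kb of the RefSeq start, the strongest peak had a median of 11.8-fold in replicate 1 and 8.19-fold in replicate 2. At the other 51 genes, 36 had a replicate 1 peak with a median of 3.88-fold and a range of 2.41 to 6.48, and 18 a replicate 2 peak with a median of 3.45-fold and a range of 2.55 to 6.91. Eif4a2, a helicase of the eIF4F complex, had 6.25-fold enrichment in replicate 1 and 3.81-fold in replicate 2. These peaks lay 86 bp and 619 bp downstream of its start, so they are not values of 1 site. Eif3a, the largest eIF3 subunit, had 5.61-fold in replicate 1 and 3.30-fold in replicate 2, at −283 bp and −522 bp from its start. Eif3f, another eIF3 subunit, had 3.45-fold and 6.91-fold, with replicate 2 the higher. Eif4ebp2, the form of the cap inhibitor known from brain, had 5.07-fold and 3.84-fold enrichment. Eif2s1, the phosphorylated alpha subunit of eIF2, and Eif4a1, the main eIF4A helicase, had a peak in replicate 1 alone, of 4.37-fold and 4.55-fold. Of the 79 genes 16 had a peak in neither list, among them Polr1a, the largest Pol I subunit, Polr2c, Polr2h, Polr3f, Polrmt, Eif2s2, Eif3l, Eif3m and Eef1a2.

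**Figure D4:**
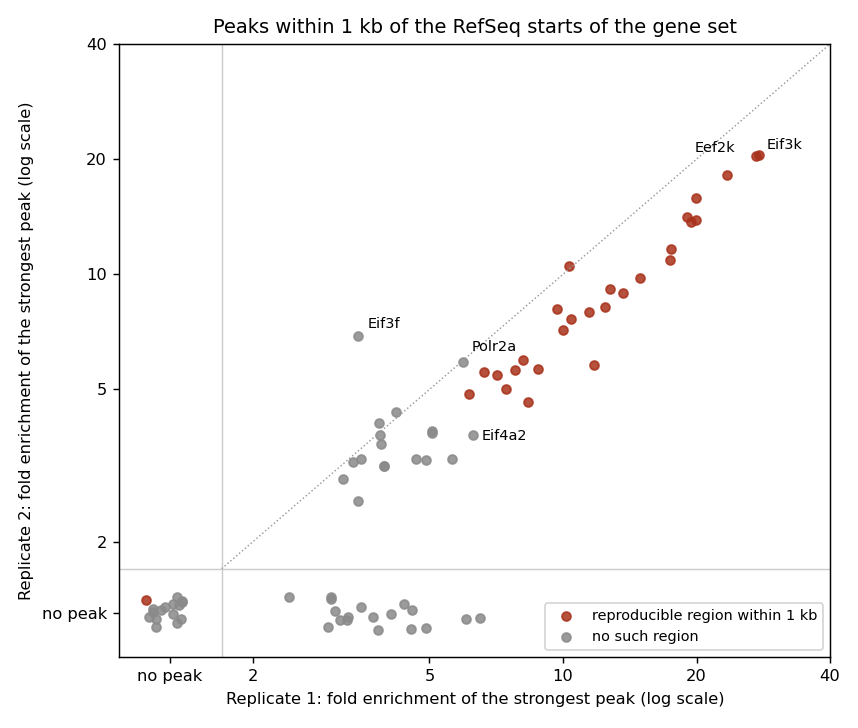
Fold enrichment of the strongest peak within 1 kb of the RefSeq start in replicate 1 (x, log axis) and replicate 2 (y, log axis) for the 79 genes of the set with a RefSeq window, in red with and in grey without a reproducible region within 1 kb; points in the margins, spread at random, have no peak in that list, and the dotted line marks equal values. Genes with a region lie above 4.62-fold in replicate 2 with 1 exception that has no peak in either list (Polr1d, whose summits lie farther than 1 kb from the RefSeq start), and 18 genes have a peak in replicate 1 alone.

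Regions also lay near genes that work with these machines. Of 72 transcription and translation cofactors listed by role, 19 (26.4%) had a region within 5 kb, beside 18.1% of all protein-coding genes. By role these were 1 of 6 Pol I factors, 7 of 27 Pol II factors, 2 of 11 Pol III factors, 4 of 12 other translation factors and 5 of 16 genes of translation signalling. Pol I factors (16.7%) and Pol III factors (18.2%) were near the share of all protein-coding genes, and no interval was computed for these lists. Gtf2a2, a TFIIA subunit, had 46.4-fold and 43.2-fold enrichment in replicates 1 and 2 at its start, above any gene of the set. Cdk7, the TFIIH kinase, had 27.5-fold and 20.5-fold, and Rrn3, the factor that brings Pol I to ribosomal DNA, 18.9-fold and 16.9-fold. Gtf3a, the Pol III factor of the small ribosomal RNA gene, had 20.4-fold and 15.4-fold, and Maf1, the repressor of Pol III, 18.1-fold and 11.3-fold. Ddx3x, a helicase of initiation, had 19.8-fold and 14.1-fold enrichment, and Pabpc1, the poly(A)-binding protein, 13.3-fold and 10.5-fold.

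Downstream of the eIF2 alpha kinases, regions lay within 5 kb of Atf4 and Ddit3, transcription factors of the stress response, and of Ppp1r15a and Ppp1r15b, which direct the phosphatase that reverses eIF2 alpha phosphorylation. Ppp1r15a had 15.6-fold and 11.4-fold enrichment in replicates 1 and 2 and Ppp1r15b 12.8-fold and 9.73-fold. Ddit3 had 11.7-fold and 7.67-fold and Atf4 8.36-fold and 5.19-fold. Impact, an inhibitor of GCN2 activation, had 8.31-fold and 6.91-fold enrichment centred 1250 bp past its start. These 5 were the only ones of the 16 genes of translation signalling with a region within 5 kb. Trib3, Mtor, Rptor, Tsc1, Tsc2, Rps6kb1 and Mknk1 were among those without.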

How the data were processed

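pSTAT3 ChIP-seq of CNTF-treated oligodendrocyte progenitors was analysed from 2 deposited peak lists, 1 per ChIP library, and the authors' table of regions reproducible between both. CASAVA 1.8, Bowtie2, MACS2 and the build GRCm38.p3 are named in the submitters' processing notes, without options. The deposited pileup signal counts fragments at the summit, and the fold enrichment is a ratio to local background, per the file headers. A pair of columns with damaged headers holds the −log10 p and −log10 q of the deposited peaks, by their values and place. The authors' table gives the IDR under an adjusted p-value header, as its title shows, with no value above 0.05. Its columns headed pileup and fold enrichment hold the mean −log10 p, so the deposited table gave no folds, and its summit is the midpoint. Its starts count from 0 and were made 1-based.

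Each region took the fold of the strongest peak of each replicate overlapping it by at least 1 bp, and was placed by its midpoint against the transcript starts of the authors' table. Starts of neighbouring genes came from that table alone, so a neighbour absent from it was not seen. The background was 21883 protein-coding genes of RefSeq (GRCm38.p6), matched by symbol or a synonym of a single gene; promoter windows were available for 17491. The table start nearest to a region and the RefSeq start differed by over 100 bp for 8 of 28 regions within 1 kb that have both. Peak folds are relative to each library's own background, and replicate 1, with the higher background, lists more peaks. No test was made, since there is a single group of 2 replicates: counts, medians and Wilson intervals describe the data and cover counting error over genes only. The members and lists were chosen with earlier results of these data known. The 25 genes with the strongest region within 5 kb are given in full, save 1 gene that is not reported here, other genes with a region there with both folds, and those with the nearest region at 5 to 25 kb with its distance; peaks outside regions and regions beyond 5 kb given with folds were chosen after their values were seen. Alternatives were windows of 1 and 25 kb, an IDR of 0.01, replicate summits or any part of the region as the position, the nearest start alone, 50% overlap, a −log10 q of 10, the pileup, and each replicate alone. Without a genome sequence, exons, UTRs and sequences outside promoter windows were not examined. Scripts ran in Python 3.11.15 with matplotlib 3.10.9, numpy 2.4.6, scipy 1.17.1 and pandas 2.3.3, and the steps were tested on simulated data.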

Additional observations from a re-analysis of the deposited data

How the results depend on the processing

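With a window of 25 kb, 51 of the listed genes had a region in place of 35, and the share moved to 52.5%. Over all protein-coding genes the share at 25 kb was 34.3%. Stricter and looser choices of IDR, q, overlap, position and nearest start gave 29 to 35 genes within 5 kb. With peaks of a single replicate in place of reproducible regions, 62 (replicate 2 alone) to 81 (replicate 1 alone) genes had a peak within 5 kb. This is a share of 61.4 to 81.2%, with a median fold of 5.06 to 5.51 and 61 to 89 peaks within 1 kb of a start. A single list holds more and weaker peaks by construction. The same shares within 5 kb were not computed over all protein-coding genes, so these cannot be read beside the background for reproducible regions. The median strength is 39 fragments where the pileup replaces the fold. Leaving out regions with a mean −log10 p under 10, chosen after the data were seen, left 35 genes within 5 kb. Placing regions by a replicate's summit moved the 25 named regions by a median of 82 bp and by 245 bp at most, and put 8 of 50 positions on the other side of the start. No paired analysis was possible because the results come from no test between groups. Replicate 2 has the lower background and lists fewer peaks; the part of depth in this was not tested, and a peak missing from its list is not shown to be absent.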
